A study of Danio rerio with 3 samples.

Results

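Cilium genes were chosen by their zebrafish symbols. The symbols began with ift, dnah, dnai, dnal, dnaaf, rsph, tekt, spag, or bbs followed by a digit, or were foxj1a. Of 75 such symbols in the reference gene table, 44 had a probe that could be named on the array, out of 27295 genes in all. By symbol, these were classed as 25 genes of ciliary motility (7 dnaaf, 4 dnai, 3 dnal, 3 rsph, 3 tekt, 4 spag, and foxj1a) and 19 genes of ciliary transport (13 ift and 6 bbs). The class follows the symbol alone, and whether each gene, such as spag7, acts in cilia was not checked. The other 31 symbols, among them all 11 dnah genes of the dynein heavy chains, matched no named probe and were not analysed here. Each gene was read from its brightest probe, by the mean over the arrays. In 42 of the 44 genes (23 motility and 19 transport), at least 1 array had this probe well above background, and in 40 all 3 arrays did. The motility genes dnai2a and dnal4a were not well above background on any array. On the control and HCD arrays, dnaaf9 and dnaaf19 were not well above background either. Just inside this limit lay dnaaf19, at −6.51 on the BBR array, and just outside it dnal4a, at −7.42.

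The RNA came from AB strain zebrafish larvae, with the tissue labelled as liver. Larvae were fed from 5 days post-fertilization (dpf) for 10 days, until 15 dpf. The control group received AP100, a powdered larval diet, at 30 mg/100 fish/day. The HCD group received a high-cholesterol diet of 180 mg AP100 with 4% cholesterol, and the BBR group received the same HCD with berberine, a plant alkaloid, at 5 μM. The HCD and control diets thus differed in the amount of food as well as in cholesterol. The Cy3 signal was read on Agilent 4×44K arrays, with 1 array per group. The number of larvae behind each array is not given in the sources used here.

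A cilium is built on an axoneme, a bundle of microtubule doublets that grows from a basal body. Intraflagellar transport (IFT) trains carry tubulin and other cargo along it, and the BBSome couples membrane proteins to the trains, in motile and immotile cilia alike. Beating requires dynein arms, which are assembled in the cytoplasm by dedicated factors, along with radial spokes, a central pair of microtubules, and filaments inside the doublets, and much of this set is under the transcription factor FOXJ1. In the liver, bile duct cells carry primary cilia, whereas hepatocytes largely lack cilia. In zebrafish larvae, motile cilia line the kidney tubules, the nasal pits, and the ventricles of the brain, and photoreceptors depend on IFT for their outer segments.

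Slide 1 held the control and BBR arrays and slide 2 the HCD array. In control against HCD, the effect of the slide cannot be told apart from that of the diet. In BBR against HCD, it cannot be told apart from that of berberine. The comparison of BBR with control was made within a slide, but these groups differed in the amount of food, in cholesterol, and in berberine. The arrays also differed in position, with BBR at position 4 of its slide and control and HCD at position 1. In either comparison with BBR, the effect of position cannot be told apart from that of berberine. Outlier spots numbered 1510 on the control, 1665 on the HCD, and 20 on the BBR array. Of 43803 spots per array, 88.5% to 92.3% were well above background, and none were saturated. For the 46 to 50 probes printed in several copies, the SD between spots was 0.21 log2 units on the control and HCD arrays and 0.11 on the BBR array. There were no replicate arrays, so no P value is given. The scanner software's error for a spot, combined for 2 arrays, is given below as the spot error. It covers the spot and not the animals, the extraction, or the labelling. For bright probes the spot error was 0.20 for every pair. The SD between copies, combined in the same way, was larger, at 0.30 for control and HCD and 0.24 for either pair with BBR.

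Markers of other tissues were detected on all 3 arrays, despite the label of liver. Above the 75th percentile on every array were 13 of 14 hepatocyte markers, 13 of 13 exocrine pancreas markers, 15 of 15 skeletal muscle markers, and 8 of 13 photoreceptor markers. Summed levels, in multiples of the 75th percentile, are given for the range between arrays and cannot be compared between lists, since the probes differ. They ran from 179.3 to 197.1 for hepatocytes, from 320.4 to 383.2 for exocrine pancreas, from 304.1 to 328.3 for skeletal muscle, and from 61.5 to 76.0 for photoreceptors. The rod opsin rho alone stood at 20.2 on the control, 21.6 on the HCD, and 17.4 on the BBR array. The 13 cholangiocyte markers summed to between 25.7 and 30.6, the 15 kidney tubule markers to between 26.2 and 30.5, and the 8 markers of olfactory and multiciliated epithelium to between 3.46 and 4.38. In such mixed RNA, fewer cells of a type and less RNA per cell cannot be told apart.

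Levels below are log2 intensities after the 75th percentile of the array was subtracted, so that 0 is that percentile. At the 2-fold threshold of the study's methods, spag1b was higher on the control than on the HCD array, as were 4.09% of all genes, and dnaaf9 was higher on the BBR than on the HCD array, as were 4.55%. No other cilium gene reached 2-fold by its brightest probe in any pair of arrays. The motility genes were mostly highest on the BBR array, and the transport genes were mostly highest on the control array. The 3 comparisons share their arrays and are not independent of each other. The plot of levels by array shows all 42 genes.

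**Figure D1:**
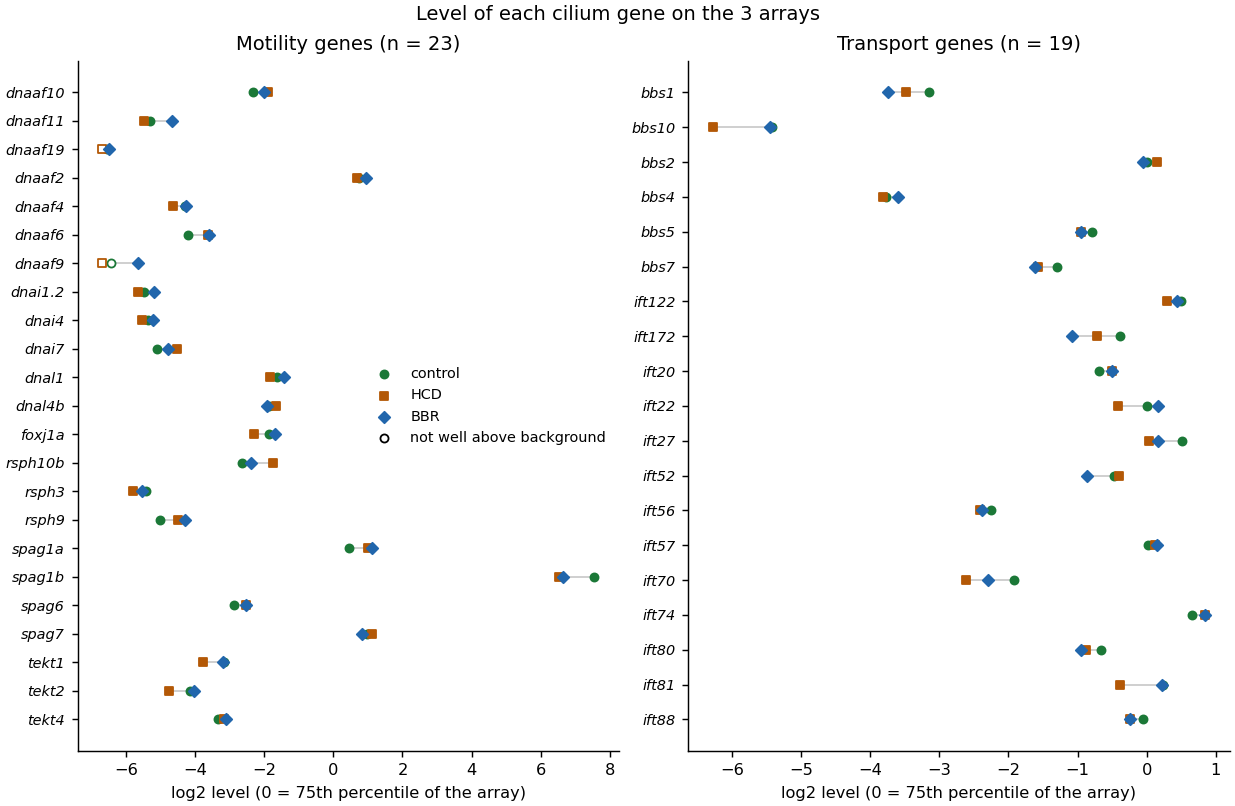
Log2 level of each cilium gene on the control (circles), HCD (squares), and BBR (diamonds) arrays, with 0 at the 75th percentile of the array and open symbols for signals not well above background. For most genes the 3 symbols lie close together, and spag1b at 7.56 on the control array stands 1.02 above its HCD value.

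The transcription factor foxj1a, a master regulator of motile ciliogenesis, read −1.88 on the control, −2.29 on the HCD, and −1.68 on the BBR array. The HCD value was the lowest. The control array was 0.42 higher and the BBR array 0.61 higher than HCD, each with a spot error of 0.205, while BBR exceeded control by 0.20, within the spot error. Another usable probe for foxj1a read −4.09 on the control, −4.96 on the HCD, and −4.36 on the BBR array, so HCD was lowest there too, but BBR lay 0.27 below control. The order of BBR and control for foxj1a therefore differed between its probes.

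The 5 dynein arm assembly factors well above background on all 3 arrays (dnaaf2, dnaaf4, dnaaf6, dnaaf10, and dnaaf11) read higher on the BBR than on the control array, by 0.04 to 0.64, beside 46.7% of all genes above 0. The other measured factors, dnaaf9 and dnaaf19, were detected on the BBR array alone, which fixes their direction. For dnaaf11, a leucine-rich repeat factor, the levels were −5.31 on the control, −5.49 on the HCD, and −4.68 on the BBR array. The BBR array was the high one, by 0.81 over HCD (spot error 0.25) and by 0.64 over control (spot error 0.26). A different order was seen for dnaaf6, a PIH domain factor, which read −4.22 on the control, −3.63 on the HCD, and −3.61 on the BBR array. Here the control array was the low one, 0.59 below HCD and 0.61 below BBR. Another PIH domain factor, dnaaf2, was measured at 0.74 on the control, 0.69 on the HCD, and 0.95 on the BBR array. These values differed by at most 0.26, close to the spot error of 0.20, and the weaker probe of dnaaf2 put BBR 0.07 below control.

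The factor dnaaf9, known in Tetrahymena as Shulin, which packages outer dynein arms, was well above background on the BBR array alone. Its signal was −6.44 on the control, −6.70 on the HCD, and −5.67 on the BBR array. The BBR level was at least 2.04-fold that on the HCD array and at least 1.71-fold that on the control array, as lower bounds against the weakest signal well above background or the probe's own signal. These values came from a single dim probe, with a spot error of 0.38 for BBR against HCD. The log2 difference of dnaaf9 between BBR and HCD was 1.03, but it was 0.89 with the median of each array as the scale, 0.58 under quantile normalization, 0.69 under cyclic loess, and 0.27 after normexp background correction. On the BBR array dnaaf19, also known as ccdc103, was just above background at −6.51, and its BBR value was at least 1.14-fold that of HCD.

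Of the dynein chains, the 3 measured intermediate chain genes (dnai1.2, dnai4, and dnai7) were 0.14 to 0.31 higher on the BBR than on the control array, beside 46.7% of all genes above 0. The gene dnai7 read −5.11 on the control, −4.52 on the HCD, and −4.79 on the BBR array. It was lowest on the control array, by 0.59 against HCD (spot error 0.24). The light chain gene dnal1, whose product binds an outer arm heavy chain, read −1.65 on the control, −1.83 on the HCD, and −1.44 on the BBR array. BBR exceeded HCD by 0.39 for dnal1, under 2 times the spot error of 0.20. Another light chain gene, dnal4b, went the other way, with BBR 0.27 below HCD.

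The radial spoke genes did not move together. The spoke head gene rsph10b read −2.66 on the control, −1.74 on the HCD, and −2.39 on the BBR array. It was highest on the HCD array, by 0.92 over control and 0.65 over BBR, with a spot error of 0.20 in each case. For rsph9, also of the spoke head, control was the low array, 0.51 below HCD and 0.72 below BBR (spot errors 0.24 and 0.23). The stalk gene rsph3 was lowest on HCD, by 0.37 against control and 0.24 against BBR (spot errors 0.30 and 0.29). Its weaker probe put HCD 0.94 below control and 0.96 below BBR.

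Tektins form filaments inside the doublet microtubules. On the HCD array tekt2 read −4.76, against −4.14 on the control and −4.05 on the BBR array, so HCD was 0.62 and 0.71 lower (spot errors 0.23 and 0.22). The same order was seen in tekt1, where HCD was 0.60 below control and 0.58 below BBR (spot error 0.21). In tekt4, at −3.36 on the control, −3.18 on the HCD, and −3.10 on the BBR array, the differences stayed at or below 0.26, whereas the weaker probe of tekt4 put HCD 0.50 below control and 0.65 below BBR.

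The brightest spag1b probe read 7.56 on the control, 6.54 on the HCD, and 6.66 on the BBR array. The control array was the high one, 2.02-fold over HCD and 1.86-fold over BBR. The mean signal of this probe, 6.92, was the top of the range over all genes, and whether it measured spag1b alone was not tested. In humans, SPAG1 acts in the cytoplasmic assembly of dynein arms. The 3 weaker probes of spag1b did not share one pattern. The first read −2.88, −3.60, and −3.10 on control, HCD, and BBR, and the next −3.86, −4.77, and −3.02, with BBR the highest. On the last, which was not well above background on control, BBR was 0.87 above HCD and HCD was at least 0.74 above control. With the mean of all its probes, spag1b was 0.48 higher on control than on HCD, which ended the 2-fold call, and 0.33 higher on BBR than on control, which turned the direction. The call was also lost under quantile normalization, at 0.39, normexp, at 0.75, cyclic loess, at 0.79, and median scaling, at 0.92. Its paralog spag1a was lowest on control, at 0.46 against 1.01 on HCD and 1.12 on BBR. The central pair gene spag6 read −2.87 on the control, −2.53 on the HCD, and −2.52 on the BBR array, a difference of at most 0.35 with a spot error of 0.21.

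Of the 13 IFT genes, 9 were lower on the BBR than on the control array, beside 13257 of 24851 genes in all. The median over the family was −0.13. All but ift122 belong to the IFT-B complex, which carries cargo toward the ciliary tip. For ift172, a peripheral IFT-B subunit, the levels were −0.38 on the control, −0.71 on the HCD, and −1.08 on the BBR array. BBR was the low array, 0.70 below control and 0.37 below HCD (spot error 0.20). The other probe of ift172 read −0.59, −0.93, and −1.17 in the same order of arrays, so this pattern was seen in each probe of the gene.

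The core IFT-B gene ift52 read −0.47 on the control, −0.40 on the HCD, and −0.87 on the BBR array, with BBR lowest by 0.40 and 0.47. Its other probes gave BBR 0.44 below control and 0.15 above control, so only a part of the probes showed this difference. The genes ift81 and ift74 encode partners that bind tubulin cargo. For ift81 the levels were 0.23 on the control, −0.39 on the HCD, and 0.22 on the BBR array, and HCD was the low array by 0.61 or more (spot error 0.20). Its weaker probe read −3.78, −4.78, and −4.50, with HCD again lowest but BBR nearer to HCD.

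The brightest probe of ift74 read 0.65 on the control, 0.84 on the HCD, and 0.84 on the BBR array. The 3 other ift74 probes went the opposite way for control and HCD, with control 0.39 to 0.52 above HCD and BBR 0.29 to 0.45 above HCD. Of the Rab-like GTPases on the trains, ift22 was lowest on HCD, at 0.01 on the control, −0.41 on the HCD, and 0.17 on the BBR array. For ift27 control was highest, 0.48 above HCD. The core subunit ift88 read −0.06 on control, −0.24 on HCD, and −0.25 on BBR, a spread within the spot error of 0.20. The IFT-A gene ift122, whose complex returns trains to the cell body, varied by at most 0.21 in its brightest probe, at 0.50 on the control, 0.29 on the HCD, and 0.44 on the BBR array. Its other probes disagreed in size. On one of them, at −2.89, −4.64, and −4.34, control was 1.75 above HCD and BBR differed from control by −1.46, whereas on the remaining probes of ift122 the arrays differed by 0.46 or less.

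Among the bbs genes, bbs1 differed most between BBR and control, at −3.15 on the control, −3.48 on the HCD, and −3.74 on the BBR array. BBR was the low array, by 0.59 against control (spot error 0.21), and both weaker probes of bbs1 also put BBR below control, by 0.17 and 0.23. The subunit genes bbs2 and bbs5 differed by 0.20 or less in every pair of arrays, with a spot error of 0.20. At 0.00 on the control, 0.15 on the HCD, and −0.05 on the BBR array, bbs2 was highest on HCD, and bbs5 read −0.80, −0.94, and −0.94 on the same arrays. The chaperonin-like bbs10, which acts in BBSome assembly, read −5.41 on the control, −6.28 on the HCD, and −5.45 on the BBR array. HCD was the low array for bbs10, 1.82-fold below control and 1.78-fold below BBR (spot errors 0.33 and 0.32). With the outlier spots kept, another bbs10 probe became the brightest, and HCD was then higher than control by 0.67 and higher than BBR by 0.50.

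When BBR was compared with control within slide 1, most motility genes read higher and most transport genes lower on the BBR array, by amounts that were mostly under 2 times the spot error. Diet, berberine, and the position on the slide all differed between these arrays, so their effects cannot be told apart. The median log2 difference was 0.20 for 23 motility genes, of which 18 were above 0, with a range of −0.90 to 0.77. Among these, dnaaf9 (at 0.77) and dnaaf19 were detected on the BBR array alone, which fixes their direction. Over the 21 motility genes on all 3 arrays the median was again 0.20, with 16 above 0 and a highest value of 0.72. For 19 transport genes the median was −0.13, with 5 above 0 and a range of −0.70 to 0.19. Over all 24851 genes measured in this pair, the median was −0.03 and 46.7% were above 0. None of these cilium genes reached 2-fold, where 3.85% of all genes were at least 2-fold higher and 1.29% at least 2-fold lower on the BBR array. More than 2 times the spot error apart were 5 motility genes (dnaaf11, dnaaf6, rsph9, and spag1a higher, spag1b lower) and 2 transport genes (bbs1 and ift172, lower), beside 27.6% of all genes.

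The medians of the motility and transport genes lay 0.34 apart for BBR against control. Under 11 alternative settings that give a median, this gap ran from 0.27 to 0.43, the motility median from 0.07 to 0.26, and the transport median from −0.23 to −0.10. Some of these settings could hardly move the gap. Scaling by the median or by the percentile over detected probes shifts both classes alike, and the authors' log2 values nearly equalled those used here. The classes also differed in brightness, with a median mean signal of −3.37 for motility and −0.58 for transport. All other genes between the quartiles of the motility signal had a median of −0.02 for BBR against control, and those between the quartiles of the transport signal −0.04. The arrays were ordered in the same way. Of 21 motility genes well above background on all 3 arrays, 13 were highest and 2 lowest on BBR, and of 19 transport genes 12 were highest on control. Over 23450 genes, 30.7% were highest on BBR, 26.9% lowest on BBR, and 42.8% highest on control.

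**Figure D2:**
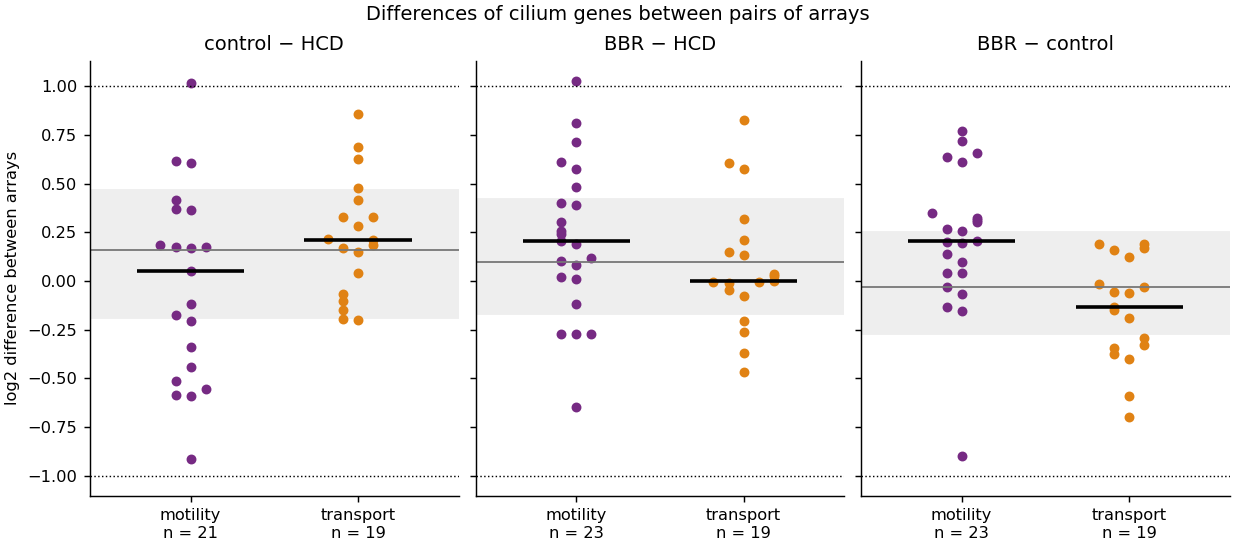
Log2 difference of each motility and transport gene (points, black bar at the median) for control minus HCD, BBR minus HCD, and BBR minus control, with the median and quartiles of all genes in grey and the 2-fold threshold dotted. For BBR minus control the motility median is 0.20 and the transport median −0.13.

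Other probes of the same genes were set against the brightest probe. For BBR against control, 11 other probes of 9 motility genes had a median of 0.06, with 8 above 0, and 5 had the sign of the brightest probe of their gene. The SD between probes of a gene was 0.69 with the 3 weaker spag1b probes and 0.19 without them. Of the 8 probes then left, 6 were above 0 and 4 had the sign of the brightest probe. Among the transport genes, 21 other probes of 12 genes had a median of −0.11, with 6 above 0 and 11 of the sign of the brightest probe, and the SD between probes was 0.33.

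**Figure D3:**
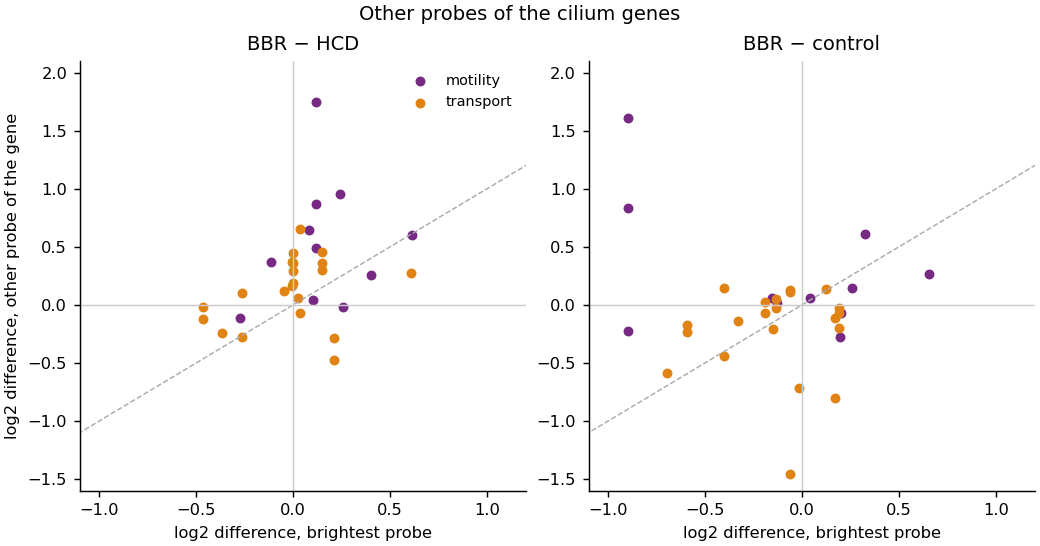
Log2 difference of each other probe of a cilium gene (vertical axis) against that of the brightest probe of the gene (horizontal axis), for BBR minus HCD and BBR minus control, with equality dashed. The motility points at −0.90 on the horizontal axis of the BBR minus control plot are the 3 weaker spag1b probes, of which 1 lies at 1.61.

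Control and HCD differed in diet and also in slide, so these effects cannot be told apart. The motility genes fell on either side of 0, whereas the transport genes were mostly higher on control. The median of 21 motility genes was 0.05, with 11 above 0 and a range of −0.92 to 1.02, and that of 19 transport genes was 0.21, with 14 above 0 and a range of −0.20 to 0.86. Over 24526 genes the median was 0.16 and 62.2% were above 0. Only spag1b was at least 2-fold higher on control, where the share over all genes was 4.09%, and none was at least 2-fold lower, where it was 3.69%.

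Between control and HCD, 10 motility and 5 transport genes differed by more than 2 times the spot error, beside 39.4% of all genes. Of these motility genes, foxj1a, spag1b, tekt1, and tekt2 were higher on control and dnaaf10, dnaaf6, dnai7, rsph10b, rsph9, and spag1a were lower. All 5 transport genes (bbs10, ift22, ift27, ift70, and ift81) were higher on control. Several of these differences, such as 0.42 for foxj1a and for ift22, were within 2 times the SD of 0.30 between copies. The calls of all genes depended on the scaling. They were 1002 higher and 906 lower on control as reported, 500 and 1152 under quantile normalization, 436 and 1317 under cyclic loess, and 724 and 1090 with the median of each array in place of the 75th percentile. The median of all genes moved from 0.16 to 0.02 under cyclic loess. The median of the motility genes was then −0.20 and that of the transport genes stayed positive, at 0.12 or more, under every alternative.

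BBR and HCD shared the diet but differed in berberine and also in slide and position, so these effects cannot be told apart. The motility genes were mostly higher on BBR, and the transport genes were spread around 0. The median of 23 motility genes was 0.21, with 18 above 0 and a range of −0.65 to 1.03, and that of 19 transport genes was 0.00, with 10 above 0 and a range of −0.47 to 0.83. Over 24897 genes the median was 0.10 and 59.8% were above 0. Only dnaaf9 was at least 2-fold higher on BBR, beside 4.55% of all genes, and none was at least 2-fold lower, beside 1.33%. The direction of dnaaf9 and dnaaf19, detected on the BBR array alone, was fixed. With only the 21 motility genes on all 3 arrays the median was again 0.21, with 16 above 0 and a highest value of 0.81. The difference was more than 2 times the spot error in 6 motility genes (dnaaf11, dnaaf9, foxj1a, tekt1, and tekt2 higher, rsph10b lower) and 4 transport genes (bbs10, ift22, and ift81 higher, ift52 lower), beside 31.1% of all genes. That of ift52, at −0.47, was within 2 times the SD of 0.24 between copies.

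For BBR against HCD, the shift of the motility genes was no larger than that of other genes of the same brightness. All other genes between the quartiles of the motility signal had a median of 0.22 for BBR against HCD, with 68.8% above 0, and those between the quartiles of the transport signal had a median of 0.00. For control against HCD these medians were 0.25 and 0.07. The motility median of 0.05 lay below the first, and the transport median of 0.21 lay above the second. Dim genes as a whole read lower on the HCD array. In the dimmest sixth of all genes the median difference from HCD was 0.40 on control and 0.39 on BBR, whereas BBR and control differed by 0.05. Under quantile normalization the motility median for BBR against HCD was 0.03, and under cyclic loess it was −0.06, each over 22 genes. The calls of all genes moved from 1134 higher and 331 lower to 545 and 580 under quantile normalization, 575 and 572 under cyclic loess, and 727 and 524 with the median of each array.

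**Figure D4:**
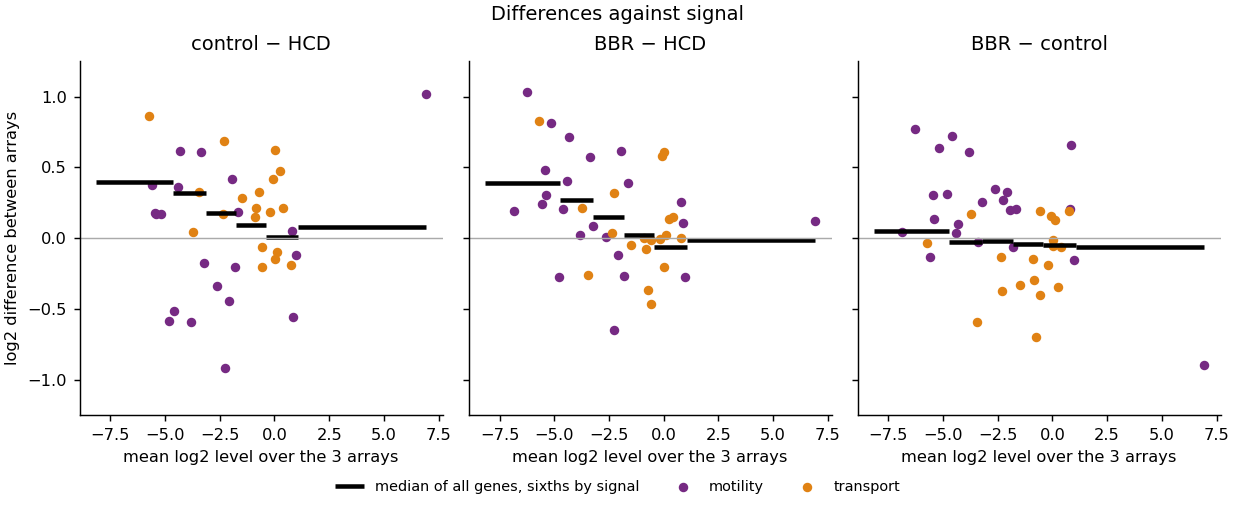
Log2 difference of each motility and transport gene against its mean log2 level over the 3 arrays, with black bars for the median of all genes in sixths by signal. The bars fall from 0.40 at the dim end for control minus HCD and from 0.39 for BBR minus HCD, but stay between −0.06 and 0.05 for BBR minus control.

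Other cilium genes that the symbol rule did not take were described in the same way. Of 106 listed motile cilium genes, such as docking complex, nexin-dynein regulatory complex, and cfap genes, 51 were measured. Their median for BBR against control was 0.18, with 37 of 51 above 0, beside a median of −0.03 and 46.7% over all genes. Well above background on all 3 arrays were 48 of them. Detection fixed the direction of lrrc23 and drc1 (higher on BBR) and of saxo2 (lower on BBR), which the count includes. Past 2-fold were lrrc23, a radial spoke gene, and myb, a transcription factor used in multiciliated cells, both higher on BBR, and tppp3, a tubulin polymerization gene, lower on BBR, beside 3.85% and 1.29% of all genes. The level of myb was −4.00 on control, −2.96 on HCD, and −2.64 on BBR. That of tppp3 was −0.39 on control, −0.89 on HCD, and −1.45 on BBR. As lrrc23 was well above background on BBR alone, its excess of 1.72 log2 units over control is a lower bound.

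The 50 measured genes of other ciliary transport and the transition zone had a median of −0.18 for BBR against control. Of these, 17 were above 0, beside 46.7% of all genes, and none was past 2-fold. For BBR against HCD, the median was 0.39 for 50 other motile cilium genes, with 42 above 0 and 4 at least 2-fold higher. Among the 4 was lrrc23, detected on BBR alone. Over all genes the median was 0.10, with 59.8% above 0 and 4.55% at least 2-fold higher. It was 0.39 in the dimmest sixth of all genes and 0.27 in the next. This list was not set against other genes of its own brightness. The transition zone and transport list had a median of −0.05, with 20 of 50 above 0. Here pkd2, a channel of primary cilia, was at least 2-fold higher, at −4.34 on HCD and −3.15 on BBR, beside the same 4.55%. For control against HCD the medians were 0.35 for the motile and 0.21 for the transport list, beside 0.16 over all genes. The order of the lists for BBR against control was thus that of the motility and transport genes. For control against HCD it was not, since the motility median of 0.05 lay below the transport median of 0.21.

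Markers of cell types, ciliated or not, were read beside these lists and did not move as one. For BBR against control, 12 of 13 photoreceptor markers were lower on BBR, with a median of −0.31. So were 8 of 10 genes from the neuron and ependyma list, with a median of −0.27. Those measured from this list were mainly neuronal and glial, such as elavl4, gap43, and gfap. Over all genes, 13257 of 24851 were lower and 46.7% were above 0, with a median of −0.03. Beside that share, 8 of 13 cholangiocyte markers were lower, with a median of −0.29. The other 5 were higher, among them slc4a2a by 1.59. The medians were also below 0 for skeletal muscle (−0.22), exocrine pancreas (−0.12), intestine (−0.13), and skin and inner ear epithelium (−0.11). Those of hepatocyte (0.08) and germ line (0.16) markers were above 0. The kidney tubule markers had a median of 0.02, with 8 of 15 above 0, and those of olfactory and multiciliated epithelium a median of −0.14, with 3 of 8 above 0. Among the olfactory markers, ompb was not well above background on control, which fixes its direction. Of that last list, the forkhead gene foxj1b was 0.44 lower and capsla 0.39 higher on BBR than on control. Both were also counted among the other motile cilium genes. Against HCD, 14 of 15 kidney tubule markers were higher on BBR, with a median of 0.33, beside 59.8% of all genes. On the control array 12 of 15 were also higher than on HCD, with a median of 0.36, beside 62.2% of all genes. The 12 measured germ line markers, which would include those of sperm precursors, summed to between 0.528 and 0.654 on the 3 arrays, and none was above the 75th percentile. For BBR against control their median was 0.16, with 8 of 11 above 0, beside 46.7% of all genes. For BBR against HCD it was 0.34, with 8 of 12 above 0, beside 59.8% of all genes. For BBR against HCD the median was 0.39 in the dimmest sixth of all genes and 0.27 in the next. The part of these cell types in the differences of the cilium genes was not tested.

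**Figure D5:**
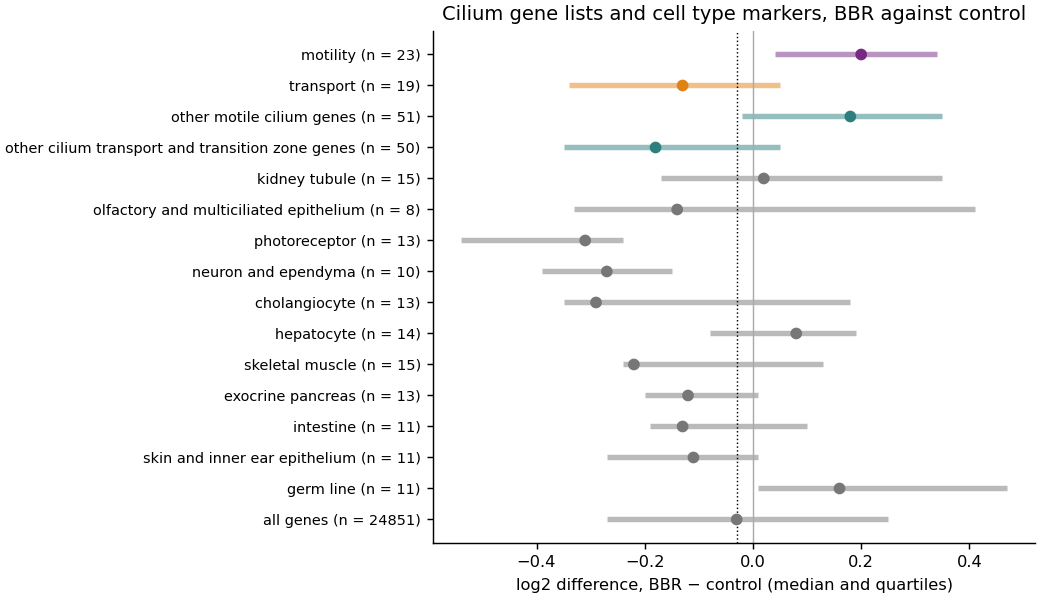
Median (points) and quartiles (bars) of the log2 difference BBR minus control for the motility and transport genes, the lists of other cilium genes, the marker lists, and all genes (dotted line at their median of −0.03). Motility genes (0.20) and other motile cilium genes (0.18) lie above 0, and transport genes (−0.13), the transition zone list (−0.18), and photoreceptor markers (−0.31) lie below. Most other marker lists, such as skeletal muscle (−0.22), also lie below 0.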

How the data were processed

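The authors scanned 1-colour arrays and deposited, for each spot, an intensity with the background subtracted (Feature Extraction 11.5.1.1 per the file headers, 10.7 per the labels), its error, and marks for background and outliers. The authors also deposited log2 values made in GeneSpring, which equalled the log2 intensity less each array's 75th percentile to within 0.01 for 43589 or more of 43603 probes. Here, the spots of a probe were averaged on the log2 scale without control spots and outliers (2657 probes were left out), and the 75th percentile was subtracted. Probes were named through RefSeq accessions in a table of assembly GRCz12tu, which gave 26094 probes (59.8%) a symbol. Where a probe was not well above background, its value was raised to the array's weakest signal well above background unless it was already higher, and the fold is a lower bound. Where the other array did not exceed that value no bound exists, and the gene was left out of that comparison (36 genes for control and HCD, 141 for BBR and HCD, and 233 for BBR and control). The array design used another assembly, so coordinates are left out, and no sequences are given.

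The members, gene lists, and markers were chosen with earlier results of these data known. Named by rule were foxj1a, members past 2-fold, the brightest member of each family, and, in each class, the 5 largest and 3 smallest differences between BBR and HCD. All other genes were named after their values were seen. Of the list genes, 3 that were members were counted as members alone. The 2-fold threshold came from the study's methods, and no test was possible with 1 array per group. Alternatives were quantile normalization, cyclic loess (3 iterations), and normexp on the median intensity (offset 50), from limma 3.58.1 in R 4.3.3, and scaling by the median, the percentile over probes detected on all arrays, stricter and absent filters, the mean of all probes, every probe singly, outliers kept, the authors' log2 values, and thresholds of 1.5-fold and 3-fold. The rest used Python 3.11.15 with numpy 2.4.6 and pandas 2.3.3. Scaling, the choice of a probe per gene, and the differences were tested on simulated data. Every probe there was set as well above background, so the filter, the floor, and the lower bounds were not tested.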

Additional observations from a re-analysis of the deposited data

How the results depend on the processing

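With 1 array per group, the number of arrays limits every value, and most differences of cilium genes were under 2 times the spot error. No paired analysis was possible because each group held 1 array. The slide as a block was not run, since no other array shares the slide of the HCD array. Of 13 alternatives, 11 give a median. The motility median for BBR against control stayed positive and the transport median negative in all 11. For control against HCD the motility median ran from −0.20 to 0.17 and was negative in 3. For BBR against HCD it ran from −0.06 to 0.26, at 0.03 under quantile normalization and −0.06 under cyclic loess, where motility minus transport was 0.04 and −0.03. The cause was not tested.

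The count of 1 motility gene past 2-fold for control against HCD, spag1b, became 0 under quantile normalization, normexp, the mean of the probes, and 3-fold. It was 1 under cyclic loess and median scaling, but there it was rsph10b, lower on control (−1.07 and −1.01), and not spag1b. It was 2 with no filter and no floor, where dnal4a was added, and 6 at 1.5-fold. For BBR against HCD it became 0 under quantile normalization, cyclic loess, median scaling, normexp, only genes on all 3 arrays, and 3-fold, 2 with no filter (dnaaf9 and dnal4a) and with every probe singly (dnaaf9 and a weaker spag1b probe), and 5 at 1.5-fold. For BBR against control it rose from 0 to 1 with every probe singly, a weaker spag1b probe, and to 6 at 1.5-fold. With every probe singly, the transport count rose from 0 to 1 for control against HCD and to 1 for BBR against control, through an ift122 probe. At 1.5-fold it was 3 between control and HCD, and 2 for BBR against either other array. At that threshold, 4369 of all 24526 genes were higher and 2337 lower on control than on HCD. On BBR, 4019 were higher and 1259 lower of 24897 against HCD, and 2566 and 1717 of 24851 against control. Over all genes, normexp gave 310 higher and 601 lower calls on control than on HCD, 327 and 197 on BBR than on HCD, and 541 and 144 on BBR than on control.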
